A study of Mus musculus with 6 samples.

Results

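The genes described here are 9 core components of hedgehog signalling, taken from a list of gene names and not from their values: the ligand gene Shh, the receptors and coreceptors Ptch1, Smo, Gas1 and Boc, the decoy receptor Hhip, and the transcription factors Gli1, Gli2 and Gli3. All 9 were measured, each by 1 probe set with a single gene symbol, among 19505 named genes on the array. Whole adrenal glands came from 6 female mice aged 2 months, with 1 array for each animal. Control mice (n = 3) were homozygous for floxed Mst1 and floxed Mst2, the genes of a pair of kinases at the head of the Hippo pathway. Mutant mice (n = 3) had the same floxed alleles plus Nr5a1-Cre, a recombinase driven by the promoter of the steroidogenic regulator Nr5a1, so recombination was directed at steroid-producing cells. The values do not show in which cells of the gland, capsule included, recombination took place. The labels name no control that carried Cre alone.

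In hedgehog signalling a secreted, lipid-bearing ligand binds Patched, which otherwise holds the membrane protein Smoothened inactive. Released Smoothened lets GLI factors switch on their targets, among which Ptch1, Hhip and Gli1 are the usual readouts. In the mouse adrenal, Shh is made by cells of the outer cortex just under the capsule, whereas Gli1 marks responding cells of the capsule, a mesenchymal layer that can give rise to cortical cells.

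Values are log2 signals per probe set. The 22206 probe sets compared had medians per array from 6.76 to 6.83, and the 23 probe sets that measure background on this array ranged from 2.53 to 7.32. A mean inside that span was not told apart from background. The kinase gene Stk4, which encodes MST1, measured 8.32, 8.66 and 8.94 in controls 1 to 3 and 8.14, 8.36 and 8.46 in mutants 1 to 3. The groups overlapped (difference -0.32 log2 units with an SE of 0.19, and a limma adjusted p of 0.623), and this value does not check the genotype, because the sources used here do not say whether the probes lie in the deleted part. Stk3, which encodes MST2, was not analysed here. Of 10 target genes of YAP and TAZ, the coactivators that MST1 and MST2 restrain, 8 had higher means in mutants, 7 with the mutants above the controls (8.00% of all probe sets). Ajuba and Tgfb2 (2 of the 10, against 0.0721% of all probe sets) rose past limma's test, with adjusted p of 0.00878 and 0.0357. The 2 with lower means were Amotl2 (-0.32, SE 0.38) and Ankrd1 (-0.13, SE 0.22), with Ankrd1 inside the background range in both groups. Ccn2 differed by 0.19 (SE 0.20), with overlap. The 10 targets were listed with earlier results of these data known, so they are not independent evidence of the genotype. The tissue carried the markers of its label: 9 of 9 genes of the steroidogenic cortex and 7 of 7 chromaffin genes lay above the background range, against 1 of 8 kidney genes. In whole glands a smaller number of cells of a type and less RNA in each of these cells cannot be told apart.

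Of the 9 hedgehog genes, 8 had higher mean signals in mutant glands and 4 of them, Shh, Ptch1, Gas1 and Gli3, were higher in each of the 3 mutants than in any control. The largest difference was that of Ptch1, at 2.11-fold. Smo alone had a lower mean in mutants. With adjustment over the 22206 probe sets, 0 of the 9 passed limma's test at an adjusted p of 0.05, where 0.0721% of all probe sets did. At an unadjusted p under 0.05 there were 6 of 9, all higher in mutants, where 5.42% of all probe sets were higher at that level. Gli1 and Gli2, 2 of these 6, had both group means inside the background range. With only probe sets above the median level the count was 4 of 7, and the share of all probe sets was not counted in that setting. For 4 of 9 the mutants lay above the controls without overlap, against 8.00% of all probe sets. The median log2 change of the 9 was 0.62, beside -0.01 over all probe sets.

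Promoter sequences are shown for the 3 matched genes whose groups did not overlap, with Smo, whose mean differed the other way, for comparison. RefSeq promoter windows of assembly GRCm38.p6 (250 bases before to 50 after the gene start) matched 6 of the 9 genes, and Shh, Gli1 and Boc had no entry. The 250 bases before the start are printed 5′ to 3′ in the direction of the gene, with capitals marking a match to any motif searched.
Ptch1, chr13:63565736-63565985, minus strand: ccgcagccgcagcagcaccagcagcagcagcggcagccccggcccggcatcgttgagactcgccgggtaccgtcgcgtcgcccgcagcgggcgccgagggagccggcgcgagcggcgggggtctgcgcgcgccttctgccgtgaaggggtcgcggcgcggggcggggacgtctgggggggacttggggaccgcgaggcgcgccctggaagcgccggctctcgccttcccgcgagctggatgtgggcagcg
Gli3, chr13:15463473-15463722, plus strand: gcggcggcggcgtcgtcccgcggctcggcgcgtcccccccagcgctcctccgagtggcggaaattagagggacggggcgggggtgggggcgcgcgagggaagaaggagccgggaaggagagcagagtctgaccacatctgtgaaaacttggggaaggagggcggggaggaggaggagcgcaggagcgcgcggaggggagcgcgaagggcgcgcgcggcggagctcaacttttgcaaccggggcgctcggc
Gas1, chr13:60177536-60177785, minus strand: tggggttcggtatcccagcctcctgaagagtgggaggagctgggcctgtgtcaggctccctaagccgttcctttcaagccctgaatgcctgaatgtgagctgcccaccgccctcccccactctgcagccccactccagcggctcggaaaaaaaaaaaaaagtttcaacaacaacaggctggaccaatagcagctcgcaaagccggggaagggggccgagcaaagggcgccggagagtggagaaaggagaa
Smo, chr6:29735247-29735496, plus strand: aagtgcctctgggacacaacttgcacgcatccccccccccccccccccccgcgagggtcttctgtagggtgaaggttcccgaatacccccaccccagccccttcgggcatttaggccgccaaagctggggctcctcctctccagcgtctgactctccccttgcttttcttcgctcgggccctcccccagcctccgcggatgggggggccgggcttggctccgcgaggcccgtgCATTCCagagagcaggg

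Over the whole window of 300 bases, the GLI binding consensus TGGGTGGTC (reverse GACCACCCA) was in 0 of the 6 promoters, exactly or with 1 mismatch, and in 0.253% and 6.74% of all 32851 windows. The TEAD core GGAATG (reverse CATTCC), which YAP and TAZ reach through TEAD proteins, was in 1 of the 6, that of Smo, from 17 to 12 bases before the start, and in 14.7% of all windows. The Nr5a1 consensus CAAGGTCA (reverse TGACCTTG) was in 0 of the 6 and in 1.56% of all windows. All searches covered both strands. A match in these letters is a description and not a binding site, and a window without one says nothing of sites elsewhere. The 6 windows were rich in G and C, from 62.3% (Gas1) to 76.3% (Ptch1), beside a median of 52.7% over all windows.

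Shh, the only ligand gene among the 9, measured 10.05, 10.03 and 10.17 in controls 1 to 3 and 10.81, 11.19 and 10.38 in mutants 1 to 3. The controls lay within 0.14 log2 units of each other, whereas the mutants spread over 0.81, with mutant 3 nearest to the controls. The means were 10.08 ± 0.08 and 10.79 ± 0.40 (SD, n = 3 each). The difference of 0.71 log2 units (SE 0.21, 95% interval 0.23 to 1.20), or 1.64-fold, had a limma adjusted p of 0.308. An exact two-sided permutation test over the animals gave p = 0.1, the smallest that 3 against 3 allows. The difference was 0.52 without mutant 2 and 0.92 without mutant 3.

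**Figure D1:**
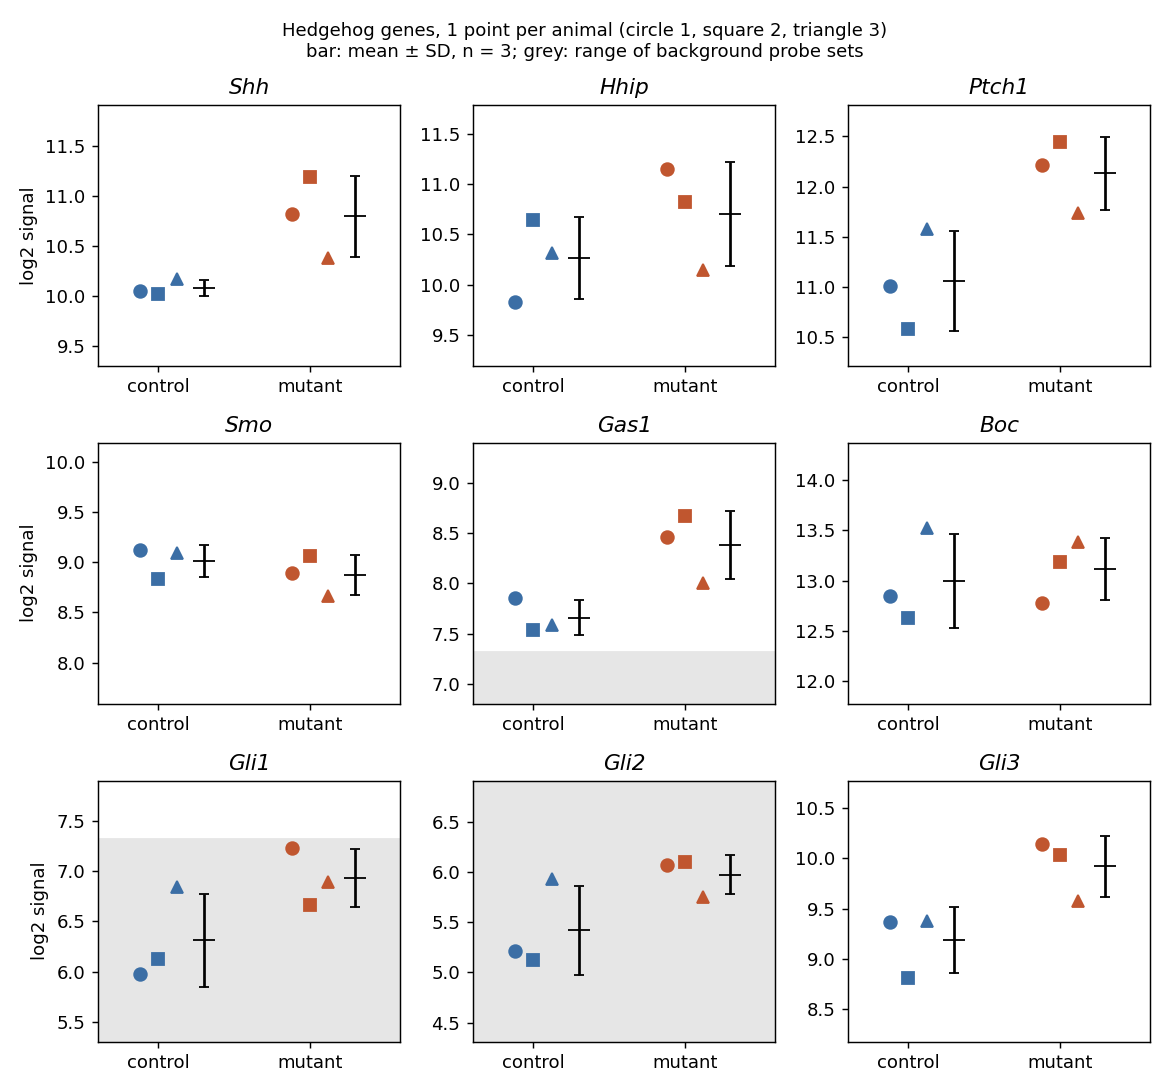
Log2 signal of each of the 9 hedgehog genes in every animal, controls in blue and mutants in orange, with the mean and SD of 3 animals beside the points; grey marks the range of background probe sets, and each panel spans 2.6 log2 units. In the panels of Shh, Ptch1, Gas1 and Gli3 the 3 mutants lie above the 3 controls, and in the others the groups overlap.

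Ptch1, the ligand's receptor and itself a hedgehog target, measured 11.01, 10.58 and 11.58 in control animals, against 12.21, 12.45 and 11.74 in mutant animals. Mutant 3 stood 0.16 above control 3, so the groups were separate but by little beside the spread of 0.99 among controls. Means were 11.06 ± 0.50 and 12.13 ± 0.36 (SD, n = 3 each). The log2 change of 1.07 (SE 0.28, 95% interval 0.43 to 1.72) corresponds to a fold of 2.11 with an interval from 1.35 to 3.29, and had a limma adjusted p of 0.252. Of all probe sets, 99.5% had a lower log2 change than Ptch1. Without control 3 the change was 1.33, and without control 2 it was 0.84. The exact permutation p was 0.1, again the smallest possible.

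Hhip, a membrane-bound decoy that takes up ligand and a target of the pathway like Ptch1, did not separate the groups. Controls had signals of 9.83, 10.64 and 10.32 and mutants of 11.15, 10.82 and 10.14, with mutant 3 below controls 2 and 3. The change of 0.44 (SE 0.29, 95% interval -0.23 to 1.12) had a limma adjusted p of 0.671. It was 0.22 without mutant 1, 0.23 without control 1 and 0.72 without mutant 3, so single animals set its size.

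Smo, the transducer that Patched restrains, measured 9.12, 8.83 and 9.09 in controls and 8.90, 9.06 and 8.66 in mutants. Its mean was lower in mutants by less than either group's range, with a difference of -0.14 log2 units (95% interval -0.52 to 0.25, SE 0.17) and a limma adjusted p of 0.833. As a fold, that interval runs from 0.70 to 1.19, so a change of the size measured for Ptch1 lies outside it. Whether the changes of Smo and Ptch1 differ from each other was not tested.

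The coreceptors Gas1 and Boc help present ligand to Patched. Gas1, a lipid-anchored surface protein, measured 7.85, 7.53 and 7.59 in controls and 8.47, 8.67 and 8.01 in mutants. All mutants lay above all controls, by at least 0.15. The means were 7.66 ± 0.17 and 8.38 ± 0.34 (SD, n = 3 each) and lay 0.72 log2 units apart (95% interval 0.26 to 1.19, SE 0.20), or 1.65-fold, with a limma adjusted p of 0.278. Control signals of Gas1 were only just above the background range, so this fold may be too small.

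Boc, an immunoglobulin-family coreceptor, measured 12.84, 12.62 and 13.52 in controls and 12.77, 13.18 and 13.39 in mutants. The highest animal was control 3 and the groups overlapped over most of their range. The difference of 0.12 log2 units (95% interval -0.48 to 0.72, SE 0.26), with a limma adjusted p of 0.917, became -0.07 without control 2 and -0.02 without mutant 3. The direction of Boc is therefore not set by these data.

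Of the GLI factors, Gli3, which works mainly as a repressor when ligand is absent, was the only one above the background range. It measured 9.36, 8.80 and 9.38 in controls and 10.15, 10.04 and 9.57 in mutants, with mutant 3 at 0.20 above the highest control. The means were 9.18 ± 0.33 and 9.92 ± 0.30 (SD, n = 3 each) and lay 0.74 log2 units apart (95% interval 0.23 to 1.25, SE 0.22), or 1.67-fold, with a limma adjusted p of 0.315.

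Gli1, an activator that is itself induced by hedgehog and marks responding capsular cells, was dim. It measured 5.97, 6.13 and 6.84 in controls and 7.23, 6.66 and 6.89 in mutants. Control 3 lay above mutant 2, and each of the 6 values was inside the background range. The difference of 0.62 log2 units (95% interval 0.03 to 1.20, SE 0.26), with a limma adjusted p of 0.459, was 0.88 without control 3 and 0.45 without control 1. Gli2, the main activator before Gli1 is induced, was also inside the background range in every animal, with 5.21, 5.12 and 5.93 in controls and 6.07, 6.10 and 5.75 in mutants. Control 3 again overlapped the mutants. The difference was 0.56 (95% interval 0.02 to 1.09, SE 0.24) with a limma adjusted p of 0.468, and 0.81 without control 3. Differences at this level are compressed on arrays, so the folds of 1.53 for Gli1 and 1.47 for Gli2 have no order relative to those of brighter genes.

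**Figure D2:**
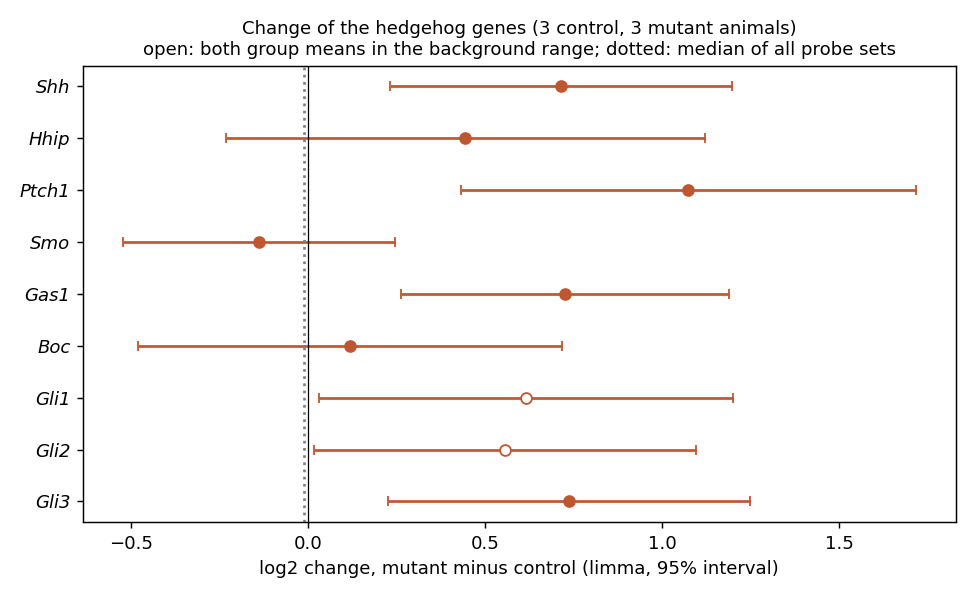
Log2 change from control to mutant of each gene, with its 95% interval from limma over 3 and 3 animals; open circles are genes with both group means in the background range and the dotted line is the median of all probe sets. Intervals of Shh, Ptch1, Gas1, Gli1, Gli2 and Gli3 lie above 0, those of Hhip, Smo and Boc include it, and 0 genes passed after adjustment over all probe sets.

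The animals differed in a like way for several of these genes. Control 2 was the lowest of the 6 animals for 6 of 9 genes, and control 3 the highest control for 6 of 9. Mutant 3 was the lowest mutant for 7 of 9, the exceptions being Gli1 and Boc. Set against the control mean of each gene, the median over the 9 genes was 0.81 in mutant 1, 0.68 in mutant 2 and 0.35 in mutant 3, and -0.05, -0.19 and 0.20 in controls 1 to 3. Mutants 1 and 2 thus stood further from the controls than mutant 3.

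Markers of stromal and vascular cells also had higher means in mutants. Of 11 fibroblast genes, 9 had higher means in mutants (median log2 change 0.47), and the log2 of their summed signal was 15.16 to 15.48 in controls and 15.36 to 16.04 in mutants, with mutant 3 the lowest mutant here too. Such a sum weighs the brightest genes of a list most. The gene of highest mean was Dcn among the fibroblast genes and Fabp4 among the adipocyte genes. Of 9 smooth muscle and pericyte genes 7 were higher (median 0.46, summed level 13.83 to 14.30 and 14.54 to 14.86), and of 9 endothelial genes 7 (median 0.35, summed level 15.98 to 16.23 and 16.41 to 16.54). All 7 macrophage genes were higher (median 0.26, summed level 12.76 to 12.84 and 12.77 to 13.33). Both group means were inside the background range for 2 fibroblast, 4 smooth muscle and pericyte, 0 endothelial and 3 macrophage genes. Chromaffin genes were lower in 7 of 7 cases (median -0.33), with summed levels of 17.84 to 18.78 and 17.88 to 18.11 and the highest value in control 2. Adipocyte genes were higher in 9 of 10 cases (median 0.86), with both means inside the background range for 2 of them. They ranged most, with summed levels of 14.51 to 15.90 in controls and 14.96 to 16.94 in mutants. Of these lists 0 genes passed limma's test over all probe sets, and at an unadjusted p under 0.05 there were 3 fibroblast, 4 smooth muscle, 4 endothelial and 2 macrophage genes, all higher in mutants, and 0 chromaffin or adipocyte genes, where 5.42% of all probe sets were higher at that level. With the fibroblast list mean of each array as a covariate, a setting chosen after seeing the data, the changes were 0.50 for Shh (SE 0.25), 0.70 for Ptch1 (SE 0.30), 0.52 for Gas1 (SE 0.24), 0.40 for Gli3 (SE 0.21) and 0.09 for Hhip (SE 0.33), and 0 of the 9 kept an unadjusted p under 0.05. With the adipocyte list mean instead, the changes were 0.67 for Shh (SE 0.23), 0.97 for Ptch1 (SE 0.29) and 0.72 for Gas1 (SE 0.23). Those of Gli3 and Hhip were 0.67 (SE 0.24) and 0.23 (SE 0.24), and 4 of the 9 kept an unadjusted p under 0.05. The share of all probe sets at that level was not counted under either covariate. Their count past an adjusted p of 0.05 was 16 without a covariate, 1 with the fibroblast list and 2 with the adipocyte list. Beyond these values, the part of stromal or fat cells in the hedgehog differences was not tested.

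**Figure D3:**
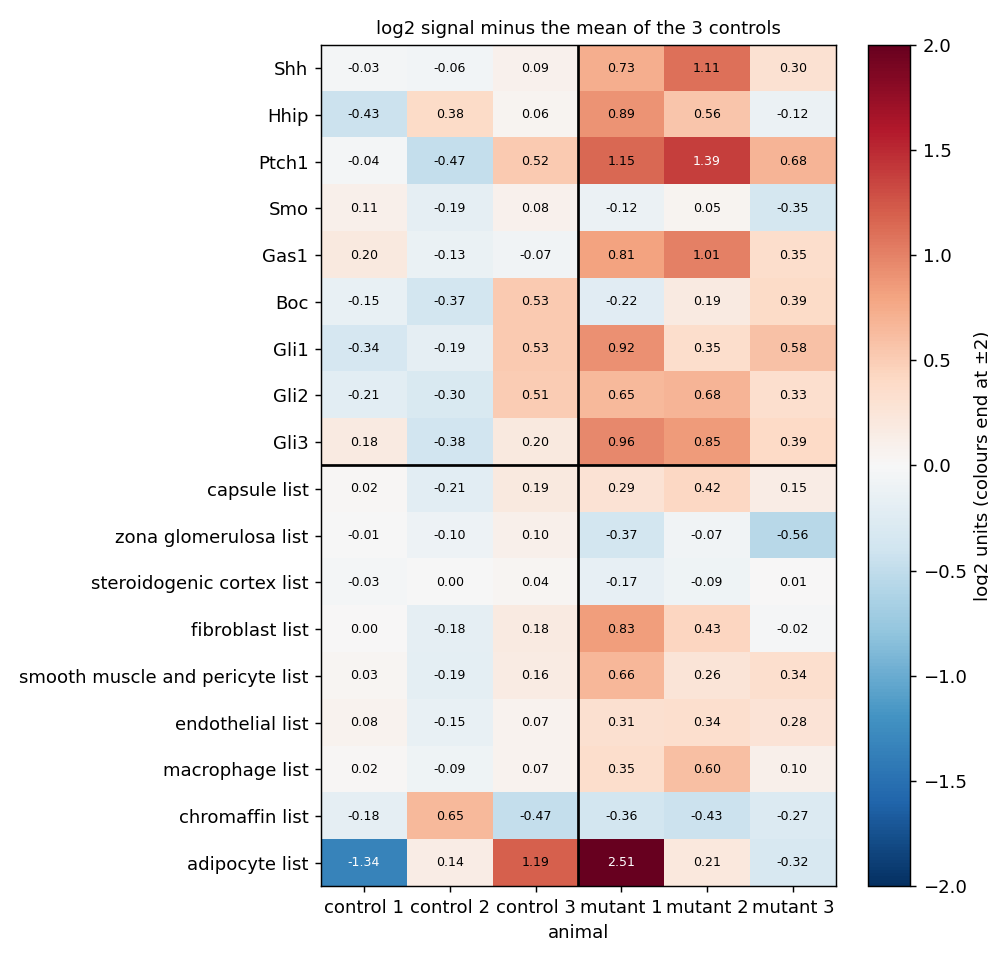
Log2 signal of each hedgehog gene (top) and mean log2 signal of 9 marker lists (bottom) in every animal, relative to the mean of the 3 controls; red is higher and blue lower, and colours end at 2 log2 units. Mutants 1 and 2 are red for Shh, Ptch1, Gas1, Gli1, Gli2 and Gli3 and for the fibroblast list, mutant 3 is paler than both in these apart from Gli1, and the adipocyte list varies within both groups.

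Cells that make or receive the ligand were looked at through their own markers. Of 6 capsule genes 5 had higher means (median log2 change 0.16), led by Tcf21, a transcription factor of capsular mesenchyme, which measured 8.13, 7.48 and 7.71 in controls and 9.01, 9.67 and 9.04 in mutants (log2 change 1.46, SE 0.24, limma adjusted p = 0.0782). Of these 5, Rspo1 (0.07, SE 0.20) and Wt1 (0.12, SE 0.18) had both group means inside the background range. The means of Rspo3, a WNT enhancer secreted by the capsule, and of Nr2f2, a nuclear receptor of mesenchyme, differed by 0.26 (SE 0.24) and 0.19 (SE 0.17). The related receptor gene Nr2f1 was the 1 lower member, at 8.03, 8.18 and 8.24 in control animals against 7.67, 7.85 and 7.80 in mutant animals, and the mutants lay below the controls (difference -0.37, SE 0.14, limma adjusted p = 0.425). Summed capsule levels overlapped, with 15.04 to 15.55 in controls and 15.35 to 15.60 in mutants. This sum was mostly the signal of Nr2f2, which measured 15.10, 14.87 and 15.39 in controls and 15.33, 15.40 and 15.20 in mutants. The zona glomerulosa, the outer cortical zone in which Shh-producing cells lie, showed lower means for 8 of 12 markers (median -0.23), so Shh and this list differed in opposite directions. The summed glomerulosa level, in which Dab2 was the brightest gene, was 18.57 to 18.78 in controls and 18.30 to 18.55 in mutants. For 5 of 12 the mutants lay below the controls without overlap, against 1856 of 22206 probe sets. These were the dehydrogenase Hsd3b6 (log2 change -1.003, SE 0.25, limma adjusted p = 0.227), the calcium sensor Vsnl1 (-1.11, SE 0.26, limma adjusted p = 0.202) and Agtr1b (-1.21, SE 0.27, limma adjusted p = 0.183), with Kcnk9 (-0.49, SE 0.21) and Kcnk3 (-0.22, SE 0.13). The mutant mean of Agtr1b was inside the background range. At an unadjusted p under 0.05 there were 4 of 12, all lower, where 4.96% of all probe sets were lower at that level. The list was not uniform: the aldosterone synthase gene Cyp11b2 (-0.24, SE 0.19), Dab2 (-0.15, SE 0.16) and Wnt4 (-0.27, SE 0.24) overlapped between groups. Higher means were found for Lef1 (0.48, SE 0.27), Smoc2 (0.12, SE 0.18), Ccn3 (0.07, SE 0.16) and the angiotensin receptor gene Agtr1a (0.06, SE 0.19), again with overlap. Smoc2 and Ccn3 had both group means inside the background range, and Lef1 its control mean.

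Other genes of the pathway were read from 4 lists arranged by role, in which 0 genes passed limma's test over all probe sets. Ligand processing and release held the widest changes. Of 10 genes 7 had higher means (median 0.19), 3 were higher and 2 lower at an unadjusted p under 0.05, where 5.42% and 4.96% of all probe sets were. Scube3, of a family of secreted proteins that help carry hedgehog away from the cell, measured 9.06, 8.83 and 8.64 in controls and 10.07, 10.05 and 10.00 in mutants. The mutants lay within a range far narrower than their distance from the controls, and the log2 change of 1.20 (SE 0.16) came close to the threshold with a limma adjusted p of 0.0529. Over 17 other settings that adjusted p ran from 0.00868 to 0.298, and it was under 0.05 in 6 of them. Its relative Scube2 (0.81, SE 0.23, limma adjusted p = 0.293) was inside the background range in both groups.

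The acyltransferase gene Hhat, which adds the ligand's palmitate, measured 8.99, 8.95 and 8.73 in controls and 9.63, 9.55 and 8.96 in mutants (log2 change 0.49, SE 0.21, limma adjusted p = 0.466), with mutant 3 inside the control range. Disp1, the transporter that exports the ligand, differed by 0.02 (SE 0.16), while its relative Disp2 had the lowest value of the list, -0.81 (SE 0.35, limma adjusted p = 0.471). Disp2 measured 9.64, 10.46 and 8.88 in controls against 8.77, 8.87 and 8.90 in mutants, so the difference lay in controls 1 and 2. The other ligand genes, Ihh and Dhh, were inside the background range in every animal, with changes of 0.31 (SE 0.15) and 0.38 (SE 0.17). Hhatl, a relative of Hhat, was also dim (-0.63, SE 0.17).

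Genes of ligand reception beyond the 9 had a median change of 0.03, with 6 of 9 measured genes higher. At an unadjusted p under 0.05 there was 1, Gpc3, higher in mutants, where 5.42% of all probe sets were higher at that level. Gpc3, a cell-surface proteoglycan that binds hedgehog, measured 11.87, 11.59 and 12.03 in controls and 12.69, 12.49 and 12.07 in mutants (0.58, SE 0.20, limma adjusted p = 0.38), and the related Gpc4 differed by -0.32 (SE 0.16). Cdon, the coreceptor most like Boc, had a change of 0.20 (SE 0.27) that lay in mutant 1, at 10.00 against 9.09 and 9.04 in mutants 2 and 3. Lrp2, an endocytic receptor for the ligand, was inside the background range (0.26, SE 0.17).

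The relay from Smo to the GLI factors, which includes proteins of the primary cilium, had a median change of -0.04, with 7 of 16 genes higher. At an unadjusted p under 0.05 there was 1, Ulk3, lower in mutants, where 4.96% of all probe sets were lower at that level. Sufu, which holds GLI proteins back, measured 9.16, 9.39 and 9.39 in controls and 9.50, 9.84 and 9.68 in mutants (0.36, SE 0.16, limma adjusted p = 0.486), the mutants above the controls. Kif7, a ciliary kinesin, was inside the background range (-0.05, SE 0.19), as were the kinase Ulk3 (-0.45, SE 0.20) and the ciliary transport gene Ift88 (-0.35, SE 0.16). Stromal genes known to respond to hedgehog in other organs had a median of 0.10, with 8 of 13 higher and 0 at an unadjusted p under 0.05, where 5.42% of all probe sets were higher and 4.96% lower. Bmp4, a growth factor, differed by 0.24 (SE 0.17), Bcl2, which protects from apoptosis, by 0.29 (SE 0.17), the cell cycle kinase gene Cdk6 by 0.39 (SE 0.22) and the dim Osr1 by 0.34 (SE 0.24). Foxf1 and Foxf2, forkhead factors induced by hedgehog in gut mesenchyme, had changes of -0.0025 (SE 0.23) and -0.14 (SE 0.17) inside the background range.

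**Figure D4:**
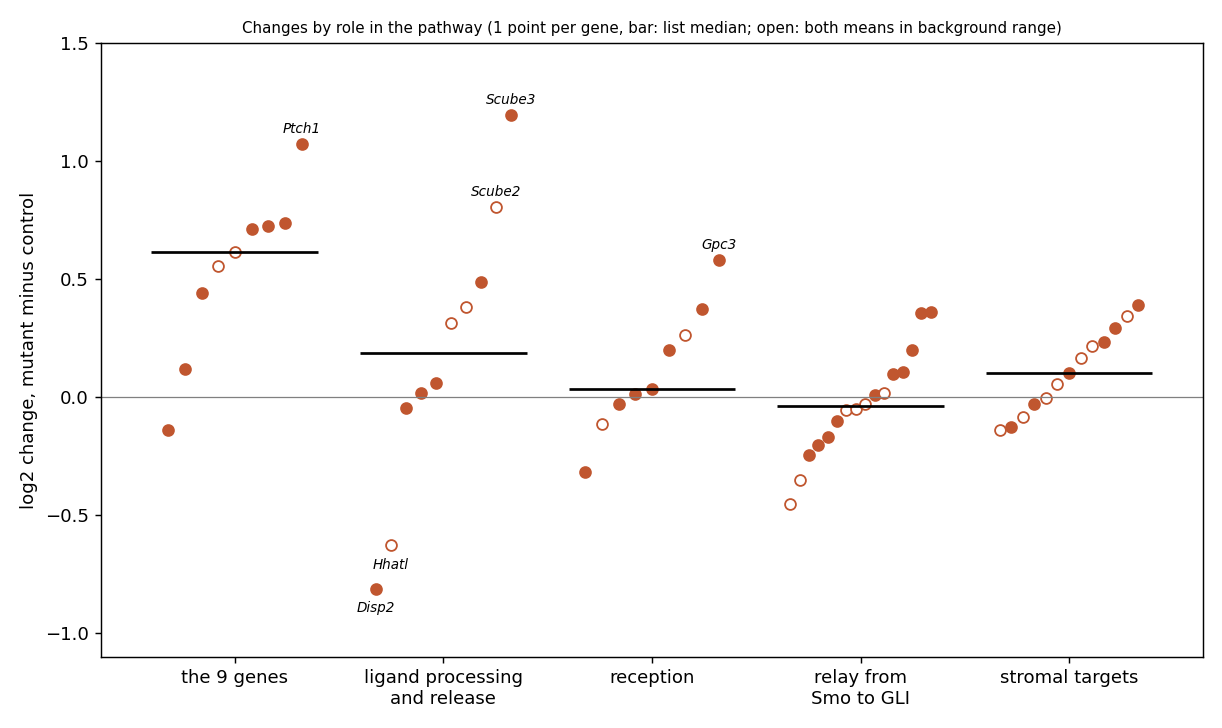
Log2 change from control to mutant of each gene, grouped by role, with the list median as a bar and open circles for genes with both means in the background range. The 9 core genes have a median of 0.62, against 0.19, 0.03, -0.04 and 0.10 in the lists of release, reception, relay and stromal targets.

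The genes whose 6 values most resembled a hedgehog gene were found by the root mean square distance between profiles after removing each gene's mean. For Shh these were Lum, a proteoglycan of fibroblast matrix, at 0.04 log2 units, Gas6, the ligand of AXL-family receptors, at 0.06, and Tril at 0.07, where the profile of Shh itself had a root mean square of 0.43. Lum measured 11.04, 11.00 and 11.05 in controls and 11.72, 12.08 and 11.35 in mutants, the same order among mutants as Shh. For Ptch1 they were Pdgfc, a platelet-derived growth factor (0.10), Itih5 (0.12) and Cck (0.17), against 0.64 for Ptch1. Cck was inside the background range in every animal. Pdgfc measured 8.98, 8.77 and 9.63 in controls and 10.20, 10.31 and 9.79 in mutants. For Gli1 they were Apobr (0.09), Prom1 (0.09) and B130024G19Rik (0.11), against 0.44, all of them dim like Gli1. These are descriptions over 6 arrays, chosen as the closest among all named probe sets.

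The differences in Shh, Ptch1, Gas1 and Gli3 kept their sign in each of 17 other settings, the fibroblast covariate included, and none passed an adjusted p of 0.05 in any of these. In many of these settings the sign could not change. Every mutant lay above every control for these genes, so leaving out 1 animal could not reverse it. Choosing other probe sets, a trended robust prior, a replicate block or averaging probe sets left the log2 change itself as it was. For Ptch1 the log2 change ran from 0.70 to 1.33 and the limma adjusted p from 0.106 to 0.725. For Shh it ran from 0.50 to 0.92, with adjusted p from 0.165 to 0.774. The count with an unadjusted p under 0.05 was 4 of 9 without control 1, control 2 or mutant 1, and 6 of 9 without control 3 or mutant 3. The share of all probe sets under these settings was not counted, so a fall cannot be read as particular to these genes.

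**Figure D5:**
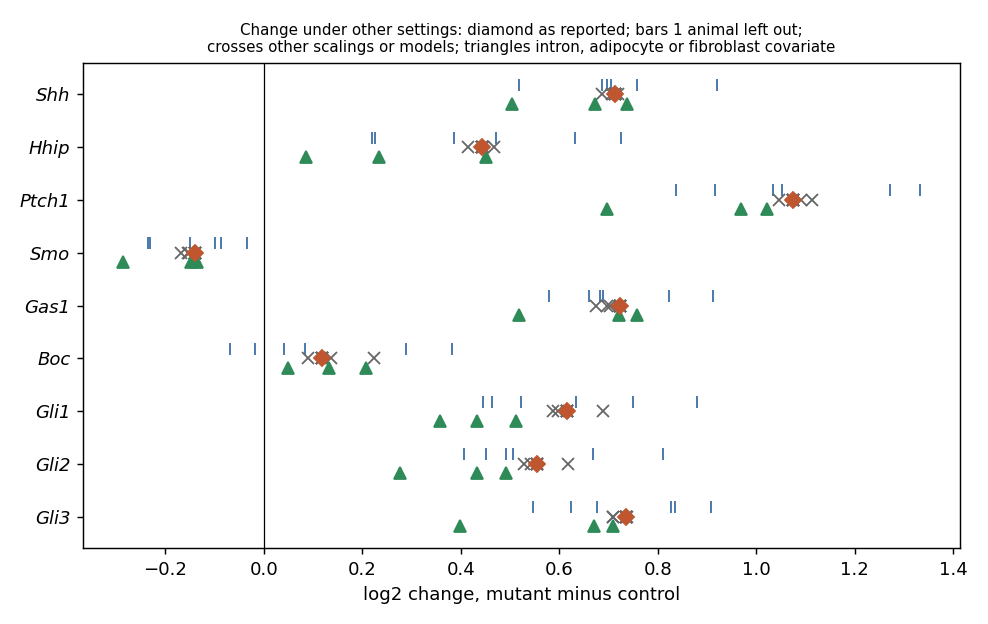
Log2 change of each hedgehog gene as reported (diamond), with 1 animal left out (blue bars), under other scalings or models (crosses) and with a covariate (green triangles: intron control, adipocyte or fibroblast signal). Values of Boc fall on both sides of 0, and the lowest triangle of Hhip, 0.09, is that of the fibroblast covariate.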

How the data were processed

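Total RNA of whole adrenal glands was measured on Affymetrix whole-transcript arrays, per the labels' protocols. The authors deposited a log2 signal for each probe set and animal, and the scale was taken from the range of values. Transcriptome Analysis Console 4.0 is named in the submitters' processing notes. How background was corrected, probes summarised and arrays scaled is not stated in the sources used here. Forcing arrays to 1 distribution would mask a shift common to most genes.

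Of 28846 probe sets, 6640 controls (introns, exons, spikes and background) were left out, and 22206 were tested. A table of the platform's annotation named 19572 of these. The difference between mutant and control was estimated with limma 3.58.1 (lmFit, eBayes; R 4.3.3), without covariates, two-sided, with Benjamini-Hochberg adjustment over all probe sets and a threshold of 0.05. The labels name the animals separately, so replicates are different animals. For a gene with several probe sets the one of highest mean stood for it. Named were the 9 genes, the 3 of smallest unadjusted p in each pathway list and a few listed in advance, 3 of which (2 pathway genes and a capsule marker) were not analysed here. Tcf21, which was analysed, was also listed in advance, and the 3 closest profiles to Shh, Ptch1 and Gli1 were added by rule. Hhat, Disp1, Disp2, Rspo1, Rspo3, Wt1, Nr2f1, Nr2f2, Cd163, Ajuba, Tgfb2, Amotl2, Ankrd1, Ccn2, Dcn, Fabp4 and the zona glomerulosa genes were named after their values were seen. Genes, lists and settings were chosen with earlier results of these data known. In simulated data over 22206 probe sets the fit called 44 of 100 changes of 1 log2 unit and 88 of 100 of 2, with 12 false calls. The simulated noise was independent between probe sets, whereas these animals differed in a like way for several genes, so the rates may not hold here.

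Alternatives were quantile normalization, a common median, only brighter or only named probe sets, a trended robust prior, array weights, a block for replicate number, leaving out each animal, averaging the probe sets of a gene, a threshold of 0.1, and covariates for intron controls, adipocyte and, added later, fibroblast genes.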

Additional observations from a re-analysis of the deposited data

How the results depend on the processing

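The hedgehog genes past an adjusted p of 0.05 numbered 0 of those tested under each alternative, with 7 of the 9 left when only brighter probe sets were kept. Over all probe sets the count of 16 was 38 with quantile normalization, 32 with a common median, 92 with only probe sets above the median level, 41 with only named probe sets, 175 with a trended robust prior, 48 with array weights, 8 with the intron covariate, 2 with the adipocyte covariate, 1 with the fibroblast covariate and 108 at a threshold of 0.1. It ran from 1 to 15 with 1 animal left out. With the replicate number as a block it was 1. Same-numbered animals are not stated to be paired, and their deviations correlated at -0.09, 0.08 and -0.07 over probe sets. Under the block Shh had an adjusted p of 0.43 and Ptch1 of 0.413. Boc changed sign without control 2 (-0.068) and without mutant 3 (-0.0177), and the cause was not tested. With 1 animal left out it ran from -0.068 to 0.3813. The other 8 genes kept theirs in each setting, though several settings left the log2 change as it was and could not reverse a sign. Scube3 passed under quantile normalization, a common median, brighter or named probe sets, the trended robust prior and array weights. The median of the ligand release list was 0.0376 among brighter probe sets. Gli1 and Gli2 are limited by signal within the background range, and 3 animals a group limit all values.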

Other observations

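Control 2 combined the highest chromaffin signal of the 6 animals (list mean 14.55, against 13.72 and 13.42 in the other controls and 13.46 to 13.63 in mutants) with the highest Disp2 signal (10.46) and the lowest signals of Shh, Ptch1, Gli2, Gli3, Gas1 and Boc. Cd163, a scavenger receptor of macrophages, was the macrophage gene with the largest difference, with 6.38, 6.30 and 6.47 in controls and 7.46, 7.27 and 7.14 in mutants (log2 change 0.91, SE 0.15, limma adjusted p = 0.0795), both group means inside the background range. No explanation for these values was tested.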
